A study of Mus musculus with 4 samples.

Results

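Nascent transcription was described for 10 genes of hepcidin and iron homeostasis in mouse liver. They were chosen by symbol, as the hormone hepcidin (Hamp), parts of the pathway that sets its transcription (Tfr2, Hfe, Tmprss6, Bmp6), targets of that pathway (Id1, Smad7) and the proteins that carry, store and export iron (Trf, Fth1, Slc40a1). All 10 were among the 20642 genes of the deposited table, and 9 of the 10 were among its 12705 active genes. Active means that reads were found near the promoter and that the gene body held, on average over the libraries, more than 4 normalized reads per kb, a density that Bmp6 did not reach. PRO-seq labels RNA in isolated nuclei as engaged RNA polymerase extends it, so its reads mark polymerase position and density and not the amount of stable mRNA.

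The 4 libraries were made from livers of C57BL/6 mice at day 14, each from 20000000 nuclei of pooled mice. WT1 and WT2 came from mice with both wild-type Hdac3 alleles, and KO1 and KO2 came from mice with conditional (F/F) or conditional and null (F/-) Hdac3 alleles. Mice of both genotypes carried Alb-Cre, a Cre recombinase driven by the albumin promoter, which is active in hepatocytes. Hdac3 is the catalytic subunit of the NCoR and SMRT corepressor complexes, and the comparison asked how transcription differed between livers with and without it in hepatocytes.

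Hepcidin is a peptide hormone made by hepatocytes that binds the iron exporter ferroportin and causes its removal from the cell surface. Its gene is switched on by BMP ligands from liver endothelial cells, whose signal passes through receptors, hemojuvelin and SMAD proteins, and by inflammatory signals through STAT3. HFE and transferrin receptor 2 report iron-loaded transferrin to this pathway, and the protease matriptase-2, encoded by Tmprss6, damps it.

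The stretches of 250 bases upstream of 3 of the genes are shown because hepcidin control is known to act through such a stretch of Hamp, and to set it beside Tfr2, whose gene body reads fell in KO, and Hfe, whose gene body reads had a log2 fold change of -0.03. Sequences are from RefSeq on build GRCm38.p6, on the strand of the gene, and end at the base before the start of the counted transcript. Capitals mark matches, on either strand, to GGCGCC (the core of the BMP response element), TTCNNNGAA (a STAT site) and TGACNNNGC (the core of the antioxidant response element).
Hamp (chr7:30944030-30944279): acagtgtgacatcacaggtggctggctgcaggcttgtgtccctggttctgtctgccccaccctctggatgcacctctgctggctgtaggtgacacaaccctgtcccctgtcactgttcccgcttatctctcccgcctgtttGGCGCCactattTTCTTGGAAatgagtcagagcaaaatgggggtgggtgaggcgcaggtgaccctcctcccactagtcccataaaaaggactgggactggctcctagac
Tfr2 (chr5:137569590-137569839): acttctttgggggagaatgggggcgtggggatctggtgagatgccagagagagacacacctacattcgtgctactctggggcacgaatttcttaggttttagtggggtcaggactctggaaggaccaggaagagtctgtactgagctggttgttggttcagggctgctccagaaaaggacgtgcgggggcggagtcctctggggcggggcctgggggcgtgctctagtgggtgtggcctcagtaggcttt
Hfe (chr13:23710855-23711104): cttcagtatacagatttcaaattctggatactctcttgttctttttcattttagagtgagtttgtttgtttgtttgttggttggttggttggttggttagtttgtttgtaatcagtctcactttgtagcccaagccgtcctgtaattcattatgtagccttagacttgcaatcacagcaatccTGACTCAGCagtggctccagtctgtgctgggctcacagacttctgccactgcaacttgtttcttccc

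The Hamp stretch held GGCGCC at -109 to -104 and TTCTTGGAA at -97 to -89, where -1 is the base just before the first transcribed base. The Hfe stretch held TGACTCAGC at -67 to -59, and the Tfr2 stretch held none of these letters. Of 32851 upstream stretches of this length in the same table, 9.59% held GGCGCC, 7.02% held TTCNNNGAA and 10.2% held TGACNNNGC. Of the 10 genes, 5 had an entry in this table. Of these, Bmp6 held TGACCGTGC at -108 to -100 before the start in the table, which was not the start of the counted transcript, and Fth1 held none of the motifs. A match describes letters and not a bound site. Trf, Tmprss6, Slc40a1, Id1 and Smad7 were not among the entries. In the RefSeq genes of this build, with strands from GENCODE vM21, Hamp spans chr7:30942368-30944029 (minus strand), Tfr2 chr5:137569822-137588081 (plus), Tmprss6 chr15:78439667-78468648 (minus) and Id1 chr2:152736251-152737410 (plus). Gene body reads were counted over exons and introns alike, and promoter-proximal reads around the start of the transcript.

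The libraries held 16628518 to 26190040 reads on genes, with KO2 the shallowest. Promoter-proximal windows took 9.38% and 10.3% of the reads on genes in the WT libraries, 13.6% in KO1 and 17.0% in KO2, so KO2 stood apart from the other libraries. Over the 12705 active genes the median log2 fold change of KO over WT was -0.09 in gene bodies and 0.56 in promoter-proximal windows, where 84.2% of genes had a value above 0. Hdac3 itself had 665 and 648 normalized gene body reads in WT and 609 and 582 in KO, a log2 fold change of -0.14 (adjusted p = 0.413, limma), and the deleted part of the gene was not measured on its own. With 2 libraries a genotype an exact permutation test of a single value cannot give a p under 0.33, so tests came from limma fitted across all active genes. These tests set the difference of the genotypes against the spread between pools of mice, moderated across genes. The spread between single mice was not measured. Genes were called up or down where the adjusted p was below 0.05 and the log2 fold change was beyond 0.6 in either direction.

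In wild-type liver, Trf, the gene of the plasma iron carrier transferrin, had the highest gene body density of the 10 genes, at 2510 ± 715 normalized reads per kb (SD, n = 2), which ranked 13 of the 12705 active genes. Slc40a1 followed at 473 ± 38.2, Fth1 at 363 ± 21.6, Smad7 at 215 ± 34.3, Tmprss6 at 176 ± 1.29 and Tfr2 at 121 ± 6.61 normalized reads per kb. Id1 at 76.3 ± 46.0 and Hfe at 73.5 ± 8.31 normalized reads per kb could not be ordered, because their WT libraries overlapped. The WT libraries of every other pair of neighbours in this order did not overlap. Hamp, at 13.0 ± 3.39 normalized reads per kb, lay below the median of 37.1 over active genes, which was taken on densities averaged over all 4 libraries. Bmp6 was lowest at 2.63 ± 0.160. The densities of Hamp and Id1 rest on gene bodies of 649 and 137 bp, because counting began past the promoter region, so both are imprecise.

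**Figure D1:**
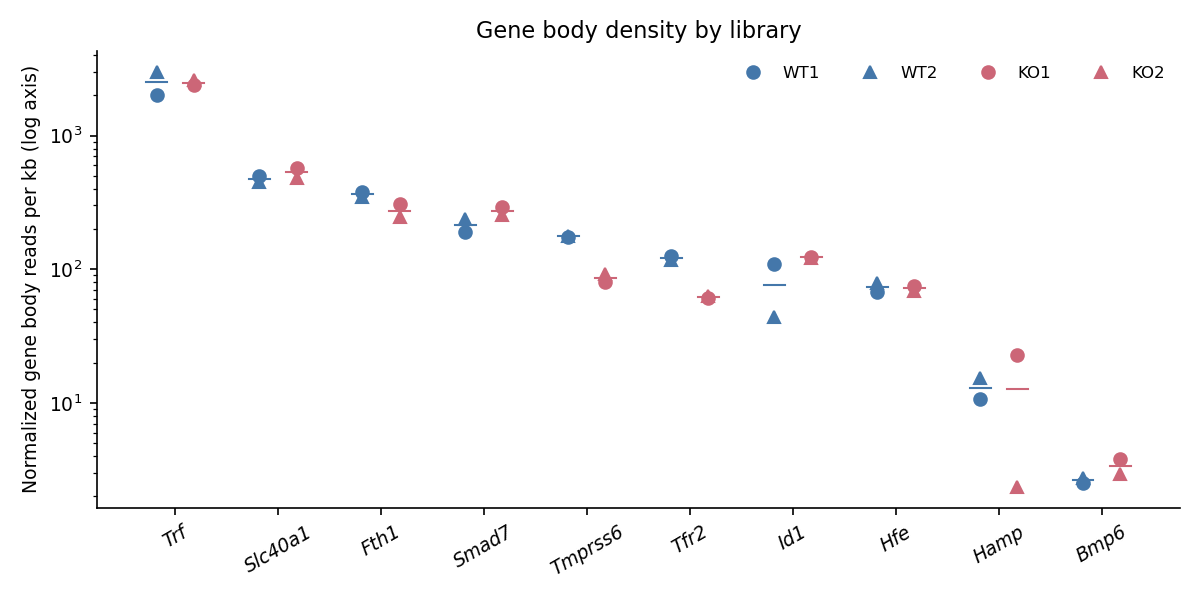
Normalized gene body reads per kb (log axis) of the 10 genes in each library, with WT1 and KO1 as circles, WT2 and KO2 as triangles and the mean of each genotype as a line. Tfr2 and Tmprss6 lay lower in KO with no overlap of the genotypes, and the 2 KO libraries of Hamp stood far apart, at 22.9 and 2.34 normalized reads per kb.

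Of the 9 active genes, Tfr2 and Tmprss6 fell in gene bodies of KO liver, each to about the same share of its WT level, and none rose. This count of 2 falls stands beside 11.4% of all active genes called down and 10.4% called up. Without the fold threshold 4 of the 9 passed, Fth1 below and Smad7 above WT besides these falls, against 22.1% of active genes below and 17% above. Libraries did not overlap for 5 of the 9, with KO below for Tfr2, Tmprss6 and Fth1 and above for Id1 and Smad7, beside 42.8% of active genes with KO below and 27.6% with KO above. The median log2 fold change of the 9 genes was -0.03. Hfe and Trf, which act beside Tfr2 at the cell surface and in plasma, had gene body values that overlapped between genotypes.

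Tfr2, the receptor through which hepatocytes sense iron-loaded transferrin, had 2090 and 1935 normalized gene body reads in WT1 and WT2 and 1009 and 1042 in KO1 and KO2. Both KO libraries lay well below both WT libraries, at 50.9% of the WT mean. The log2 fold change was -0.97 ± 0.11 (SE, n = 2 a genotype, 95% CI -1.21 to -0.74, adjusted p = 3.27e-07, limma). In the promoter-proximal window, the 50 bp with most reads near the start, Tfr2 had 118 and 91 normalized reads in WT and 54.1 and 75.9 in KO. The groups did not overlap, and the log2 fold change of -0.69 did not pass the test (adjusted p = 0.122, limma). Relative to the median of active genes it was -1.25, and with scaling within promoter-proximal windows Tfr2 was called down at -1.25 (adjusted p = 0.00250 with median-of-ratios scaling, limma). Actl6b ends 258 bp upstream of Tfr2 on the same strand, and its part in the Tfr2 reads was not tested.

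Tmprss6, the membrane protease that cleaves hemojuvelin and so restrains hepcidin, had 4907 and 4958 normalized gene body reads in WT and 2237 and 2566 in KO. The WT libraries were nearly equal, and both KO libraries lay at about the same distance below them. The log2 fold change was -1.04 ± 0.11 (SE, n = 2 a genotype, 95% CI -1.27 to -0.81, adjusted p = 6.61e-08, limma). Its promoter-proximal reads were 65.4 and 81 in WT and 31.8 and 45.5 in KO, again with no overlap. That log2 fold change of -0.92 (adjusted p = 0.0520, limma) fell short of the threshold, and with scaling within promoter-proximal windows it was called down at -1.48 (adjusted p = 0.00157 with median-of-ratios scaling, limma).

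The falls of Tfr2 and Tmprss6 stood beside lower reads on genes that mark hepatocytes. Of 8 hepatocyte markers, 5 were called down in gene bodies (Alb, Apoa1, Cps1, Serpina1c and Ahsg), all 8 had both KO libraries below both WT libraries, beside 11.4% and 42.8% of all active genes, and their median log2 fold change was -1.05. Their summed gene body reads were 335431 to 335520 in WT and 159521 to 165010 in KO. In bulk nuclei, fewer cells of a type and less transcription per cell cannot be told apart, and the part of the hepatocyte markers in the falls of Tfr2 and Tmprss6 was not tested. The markers did not move evenly: Apoa1, an apolipoprotein, had a gene body log2 fold change of -1.76, and Fgb, a fibrinogen chain, had -0.28. Single marker genes, here and later, were named after the values were seen.

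Hfe, the MHC class I-like protein that binds the transferrin receptors, had 404 and 474 normalized gene body reads in WT and 448 and 410 in KO. The groups overlapped, and the log2 fold change was -0.03 (95% CI -0.33 to 0.27, adjusted p = 0.888, limma). Its promoter-proximal reads were 65.4 and 61 in WT and 98.7 and 105 in KO. Both KO values exceeded both WT values, as for 61.9% of active genes, and the log2 fold change of 0.68 did not pass the test (adjusted p = 0.127, limma). Relative to the median it was 0.12.

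Trf had 40921 and 61546 normalized gene body reads in WT and 48789 and 53051 in KO. Both KO libraries lay between the WT libraries, and the log2 fold change was 0.02 (95% CI -0.31 to 0.35, adjusted p = 0.934, limma). At the promoter Trf had 1228 and 1136 normalized reads in WT and 801 and 935 in KO. Both WT values exceeded both KO values, which held for 6.72% of active genes. The log2 fold change of -0.45 did not pass the test (adjusted p = 0.202, limma), was -1.01 relative to the median, and was called down at -1.02 with scaling within promoter-proximal windows (adjusted p = 0.00139 with median-of-ratios scaling, limma). An annotated gene on the same strand, Gm20425, overlaps Trf, and reads of the pair cannot be told apart.

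**Figure D2:**
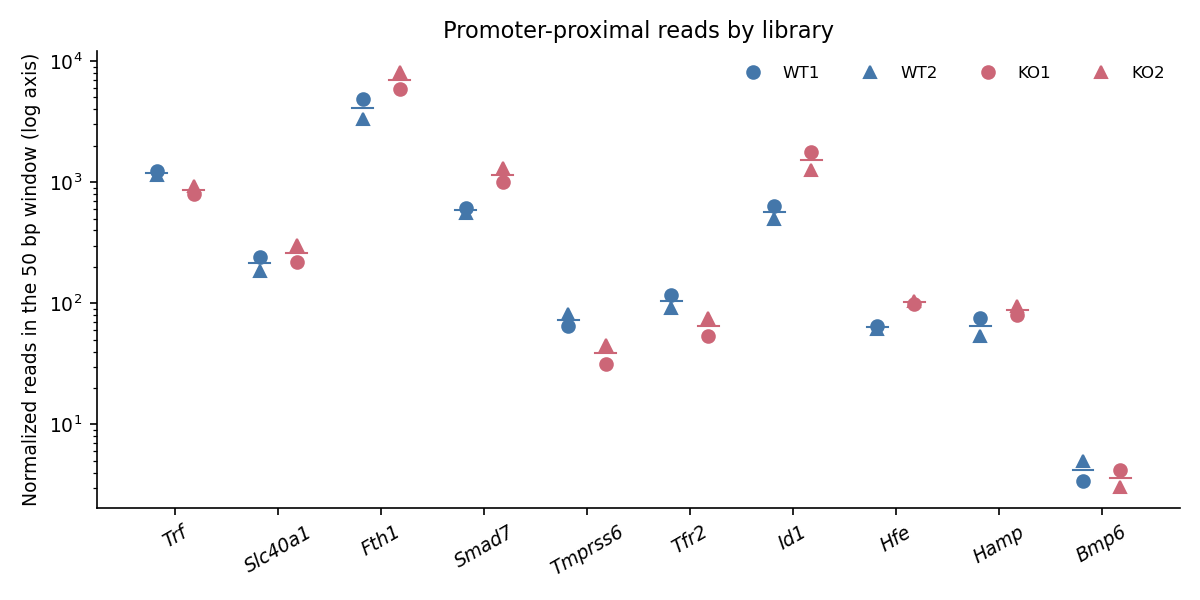
Normalized reads in the 50 bp promoter-proximal window (log axis) of the 10 genes in each library, with the genes in the order of their WT gene body density, WT1 and KO1 as circles, WT2 and KO2 as triangles and the mean of each genotype as a line. Id1, Smad7, Fth1, Hfe and Hamp lay higher in both KO libraries, while Tfr2, Tmprss6 and Trf lay lower in both. Of all active genes, 61.9% lay higher in both KO libraries and 6.72% lower in both.

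Among the targets of BMP signalling, Id1 and Smad7 rose in promoter-proximal windows of KO liver, and so did the ferritin heavy chain gene Fth1. These 3 of the 9 active genes stand beside 25.8% of all active genes called up in this window, with 2.2% called down and a median log2 fold change of 0.45 for the 9 genes against 0.56 for all active genes. With scaling within promoter-proximal windows, which removes the median shift, Id1 was the 1 gene of the 9 called up, while Tfr2, Trf and Tmprss6 were called down. Of all 12705 active genes, 634 were called up and 942 down in this window with median-of-ratios scaling of this kind.

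Id1, an inhibitor of DNA binding induced early by BMP, had 636 and 492 normalized promoter-proximal reads in WT1 and WT2 and 1779 and 1262 in KO1 and KO2. Even the lower KO library lay well above the higher WT library. KO over WT, the log2 fold change was 1.42 ± 0.28 (SE, n = 2 a genotype, 95% CI 0.87 to 1.98, adjusted p = 2.92e-05, limma), or 0.86 relative to the median. Without KO2, the library with the largest promoter-proximal share, it was 1.67 (adjusted p = 0.0347, limma), and without WT2 it was 1.24 and no longer called (adjusted p = 0.0604, limma). Its gene body gave 14.9 and 6 normalized reads in WT and 17.0 and 16.7 in KO. WT2 was low and the groups did not overlap, and the log2 fold change of 0.76 had a 95% CI of -0.25 to 1.76 (adjusted p = 0.231, limma).

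Smad7, the inhibitory SMAD that feeds back on BMP receptors, had 616 and 561 normalized promoter-proximal reads in WT and 995 and 1301 in KO. The groups lay far apart, with KO2 the higher KO library. This was a log2 fold change of 0.95 ± 0.29 (SE, n = 2 a genotype, adjusted p = 0.00741, limma), or 0.39 relative to the median. It was not called without WT1 (1.02, adjusted p = 0.114), without WT2 (0.88, adjusted p = 0.214) or without KO2 (0.76, adjusted p = 0.118, limma). In the gene body Smad7 had 5259 and 6597 normalized reads in WT and 8003 and 6980 in KO. The KO libraries lay above the WT libraries, and the log2 fold change of 0.34 (95% CI 0.10 to 0.59, adjusted p = 0.0259, limma) was smaller than the fold threshold.

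Bmp6, the BMP ligand that responds to iron and is made in liver mainly by endothelial cells, had 384 and 419 normalized gene body reads in WT and 586 and 452 in KO over a gene body of 153013 bp. The KO values lay above the WT values, at mean densities of 2.63 normalized reads per kb in WT and 3.39 in KO. Its promoter-proximal reads were 3.44 and 5 in WT and 4.24 and 3.04 in KO, which overlapped. Since Bmp6 was not active, its difference was not tested.

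The higher values of Id1 and Smad7 stood beside higher reads on markers of endothelial and stellate cells, in which BMP targets are also transcribed. Of 10 liver endothelial markers, 7 were called up in gene bodies and 10 in promoter-proximal windows, beside 10.4% and 25.8% of all active genes, and none was called down. Their summed gene body reads were 61231 to 66507 in WT and 102292 to 114435 in KO, and the median gene body log2 fold change was 0.74. Of 8 stellate cell markers, 7 were called up in each region with a gene body median of 1.44, and their summed gene body reads were 12052 to 13221 in WT and 24695 to 27125 in KO. Of 8 Kupffer cell markers, none was called in gene bodies and 1 was called up in promoter-proximal windows, with a gene body median of 0.24 and sums of 20894 to 21033 in WT and 22119 to 26555 in KO. The part of these cells in the rises of Id1 and Smad7 was not tested. Fewer endothelial markers were called up in promoter-proximal windows with any 1 library left out, and fewer stellate markers without KO2 or WT2. Fewer of all active genes were called up there too without KO2, WT1 or WT2, but not without KO1.

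Hamp, the hepcidin gene itself, had few gene body reads in each of the 4 libraries, and a difference there was not detectable at this depth. It had 6.88 and 10 normalized gene body reads in WT and 14.9 and 1.52 in KO, which were 6, 10, 14 and 1 whole reads in WT1, WT2, KO1 and KO2. The KO libraries lay on either side of the WT libraries. The log2 fold change was -0.56 with a 95% CI of -2.02 to 0.90 (adjusted p = 0.564, limma), and it was -1.89 without KO1 (adjusted p = 0.0488) and 0.77 without KO2 (adjusted p = 0.313, limma). On whole reads edgeR gave 0.11 (adjusted p = 0.913), so the sign was not settled. Hamp2, a near copy of Hamp, had 1.15 and 3 normalized gene body reads in WT and 4.24 and 4.55 in KO and was not active, and reads of the pair may be split between them.

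More reads lay in the promoter-proximal window of Hamp, at 75.7 and 54 in WT and 80.6 and 95.7 in KO. KO was higher without overlap, as for 61.9% of active genes, with KO1 close to WT1. The log2 fold change was 0.45 (95% CI -0.25 to 1.16, adjusted p = 0.318, limma), or -0.11 relative to the median, so its sign depended on the scaling. Usf2 ends 1216 bp upstream of Hamp on the same strand and had 1201 and 1334 normalized gene body reads in WT and 1034 and 973 in KO. Its part in the Hamp reads was not tested, and it was looked up after the values were seen. The 3 active genes whose gene body profile over the 4 libraries lay nearest to that of Hamp were Ctla2a, Tcap and Wbp5, at Euclidean distances of 0.40, 0.51 and 0.53 on the log2 scale. KO2 was the lowest library of all 3, and they had at most 26.5 normalized reads in any library.

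**Figure D3:**
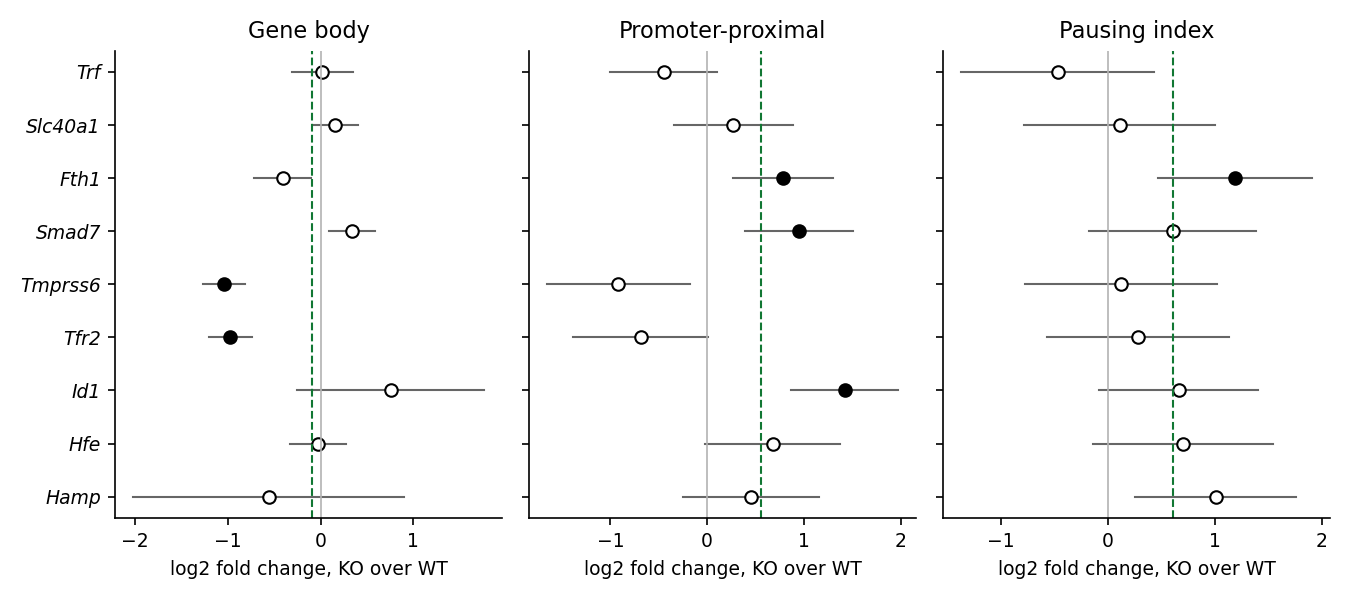
Log2 fold change of KO over WT with its 95% CI for the 9 active genes in gene bodies, promoter-proximal windows and the pausing index. Filled points were called, dashed lines mark the medians of all active genes (-0.09, 0.56 and 0.61), and the widest gene body interval is that of Hamp.

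Slc40a1, which encodes ferroportin, the cellular iron exporter bound by hepcidin, had 8267 and 7373 normalized gene body reads in WT and 9514 and 8001 in KO. The groups overlapped, and the log2 fold change was 0.16 (95% CI -0.08 to 0.40, adjusted p = 0.288, limma). Its promoter-proximal reads were 243 and 184 in WT and 217 and 301 in KO. These overlapped too, with a log2 fold change of 0.27 (adjusted p = 0.499, limma) that was -0.29 relative to the median.

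Fth1, the ferritin subunit that oxidizes iron for storage, had higher promoter-proximal reads and lower gene body reads in KO than in WT. It had 4834 and 3351 normalized promoter-proximal reads in WT and 5879 and 8188 in KO, and 525 and 483 normalized gene body reads in WT and 424 and 340 in KO. The groups overlapped in neither region, with KO2 the most extreme library in both. The promoter-proximal log2 fold change was 0.79 ± 0.26 (SE, n = 2 a genotype, adjusted p = 0.0168, limma), or 0.23 relative to the median. It was not called when any 1 of WT1, WT2, KO1 or KO2 was left out (0.52 to 1.05, adjusted p 0.0738 to 0.428, limma) or with a replicate block (adjusted p = 0.0659, limma). The gene body log2 fold change of -0.41 (adjusted p = 0.0333, limma) was smaller than the fold threshold. Ferritin genes have processed copies elsewhere in the genome, so the place of some of these reads is uncertain.

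The pausing index, the density in the promoter-proximal window over that in the gene body, rose for 1 of the 9 active genes, Fth1, beside 12.4% of all active genes called up and 0.519% called down. The index of Fth1 was 256 and 193 in WT and 385 and 669 in KO. Both KO libraries lay above both WT libraries, with KO2 the highest, and the log2 fold change was 1.19 ± 0.37 (SE, n = 2 a genotype, adjusted p = 0.0219, limma), or 0.58 relative to the median. It was not called without WT1 (1.40, adjusted p = 0.308), without WT2 (0.99, adjusted p = 0.611), without KO2 (0.79, adjusted p = 0.171), with a replicate block (adjusted p = 0.114) or with scaling within each region (0.54, adjusted p = 0.341, limma). The index of Hamp, 143 and 70.1 in WT and 70.5 and 818 in KO, rested in KO2 on 1 gene body read (log2 fold change 1.01, adjusted p = 0.0569, limma). Trf had the lowest value of the 9, at -0.47 (adjusted p = 0.438, limma).

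**Figure D4:**
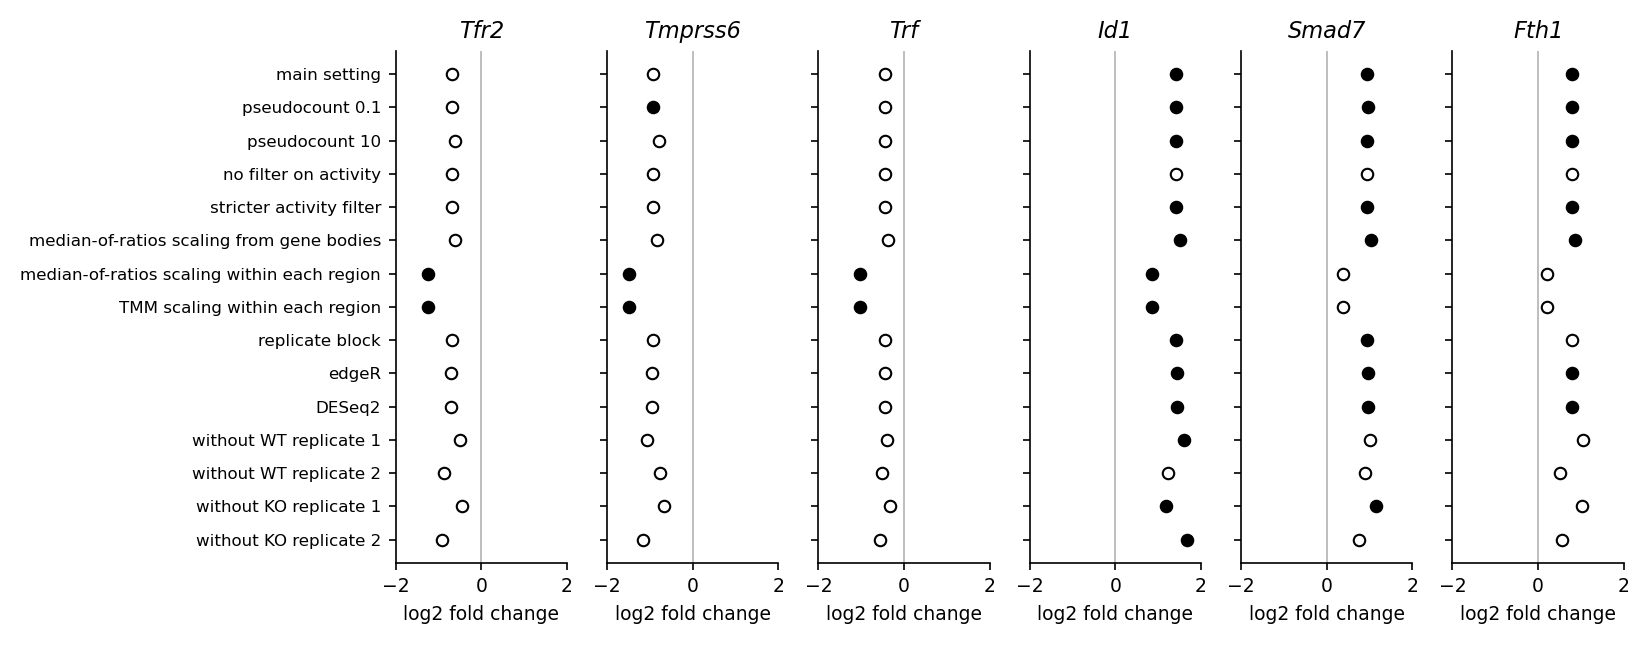
Promoter-proximal log2 fold change of 6 genes with other pseudocounts, filters, scalings, tests and left-out libraries. Filled points were called. With scaling within each region Id1 remained called at 0.85, and Tfr2, Tmprss6 and Trf were called down, at -1.25, -1.48 and -1.02.

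The other genes of the BMP-SMAD arm moved in both directions. Of 30 genes listed, 28 were active, with 4 called up and 4 called down in gene bodies, 9 called up and 1 called down in promoter-proximal windows, and a median gene body log2 fold change of 0.03. Over all active genes, 10.4% were called up and 11.4% down in gene bodies, and 25.8% up and 2.2% down in promoter-proximal windows, and these shares are the background for the lists that follow. The BMP ligand gene Bmp5 had 843 and 994 normalized gene body reads in WT and 2840 and 2495 in KO, and rose by 1.54 on the log2 scale (adjusted p = 7.35e-10, limma). Id3, a relative of Id1, rose by 0.89 (adjusted p = 4.95e-05, limma), from 246 and 300 normalized reads in WT to 486 and 524 in KO. The inhibitory Smad6 and the BMP receptor-binding Fkbp1a were the other 2 called up, by 0.70 and 0.69, and were named after the values were seen.

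The largest fall in this arm was that of Smad9, a SMAD of the BMP branch, with 1819 and 1324 normalized gene body reads in WT and 388 and 307 in KO. The KO libraries lay far below the WT libraries (log2 fold change -2.17 ± 0.15, adjusted p = 1.55e-10, limma). Il6ra, the receptor subunit through which interleukin-6 reaches STAT3, fell by 1.20 on the log2 scale (adjusted p = 1.39e-08, limma), from 10019 and 8192 to 3875 and 4014 normalized gene body reads. Atoh8 and Furin also fell, with log2 fold changes of -0.90 and -0.61, and were named after the values were seen. Hfe2, the gene of the BMP co-receptor hemojuvelin, had 618 and 558 normalized gene body reads in WT and 475 and 565 in KO, which overlapped (log2 fold change -0.18, adjusted p = 0.324, limma). Bmp2, a second endothelial ligand of hepcidin control, had 1346 and 1194 in WT and 1780 and 1716 in KO, a log2 fold change of 0.46 under the fold threshold (adjusted p = 0.00244, limma). In promoter-proximal windows fewer genes of the arm were called up without KO2, WT1 or WT2, as were fewer of all active genes. Without KO1 neither count was lower.

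Of 25 genes of iron uptake, storage, export and iron regulatory protein control, 19 were active, with 7 called down and 2 called up in gene bodies and a median log2 fold change of -0.22, beside 10.4% of all active genes called up and 11.4% called down. In promoter-proximal windows Ftl1 and Ireb2 were called up and Ltf was called down. The Ltf window held only 5.74 and 6 normalized reads in WT and 1.06 and 1.52 in KO, and its call was lost without KO2. The calls of Ftl1 and Ireb2 were lost without WT1, WT2 or KO2, where fewer of all active genes were called up too. Slc39a14, the importer of iron not bound to transferrin, had 14427 and 16339 normalized gene body reads in WT and 5713 and 5754 in KO. Its KO libraries were nearly equal and lay far below WT (log2 fold change -1.42 ± 0.11, adjusted p = 6.88e-10, limma). Tfrc, the transferrin receptor of most cells, had 2495 and 2906 in WT and 1368 and 1295 in KO, and fell by 1.02 on the log2 scale in gene bodies (adjusted p = 1.86e-07, limma). Its promoter-proximal reads overlapped, at 517 and 355 in WT and 324 and 654 in KO. Its pausing index was called up, by 1.12 (adjusted p = 0.0397, limma). Of 7 active erythroid markers, a lineage rich in Tfrc, 5 were called down and all 7 had both KO libraries below both WT libraries, beside 11.4% and 42.8% of all active genes, with sums of 1074 to 1308 normalized gene body reads over the 9 in the table in WT and 386 to 461 in KO. Their part in the fall of Tfrc was not tested.

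Ceruloplasmin (Cp), the ferroxidase that helps load iron onto transferrin, fell by 0.62 on the log2 scale (adjusted p = 0.000318, limma), from 18236 and 13938 to 10519 and 10290 normalized gene body reads. This was near the fold threshold, and Cp was not called without WT1 (-0.42, adjusted p = 0.0122), without KO2 (-0.60, adjusted p = 0.0384) or with the other scalings (-0.53 with median-of-ratios, adjusted p = 0.0134, limma). The largest fall in this list was that of Ltf, the gene of lactoferrin, at -1.92 (adjusted p = 2.6e-07, limma). Lactoferrin is a protein of neutrophil granules, and the gene body reads of Ltf fell from 202 and 329 in WT to 71.1 and 63.8 in KO.

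The ferritin light chain gene Ftl1 was higher in KO in both regions, with 622 and 520 normalized gene body reads in WT and 1115 and 1076 in KO. It rose by 0.94 on the log2 scale (adjusted p = 2.82e-06, limma), and its promoter-proximal log2 fold change was 1.15 (adjusted p = 0.00288, limma), or 0.59 relative to the median. That call was lost without WT1 (1.34, adjusted p = 0.0564), without WT2 (0.97, adjusted p = 0.212), without KO2 (1.05, adjusted p = 0.0717) and with scaling within each region (0.58, adjusted p = 0.0769 with median-of-ratios, limma). Steap4, a metalloreductase, rose by 0.88 (adjusted p = 7.9e-07, limma), from 1454 and 1546 to 2784 and 2731 normalized gene body reads. Ireb2, the iron regulatory protein that senses cell iron, had overlapping gene body reads (3155 and 2793 in WT, 2959 and 2534 in KO), and its promoter-proximal log2 fold change was 0.78 (adjusted p = 0.0372, limma). The Ireb2 call was lost without WT1, WT2, KO1 or KO2 (0.71 to 0.85, adjusted p 0.0650 to 0.287, limma).

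**Figure D5:**
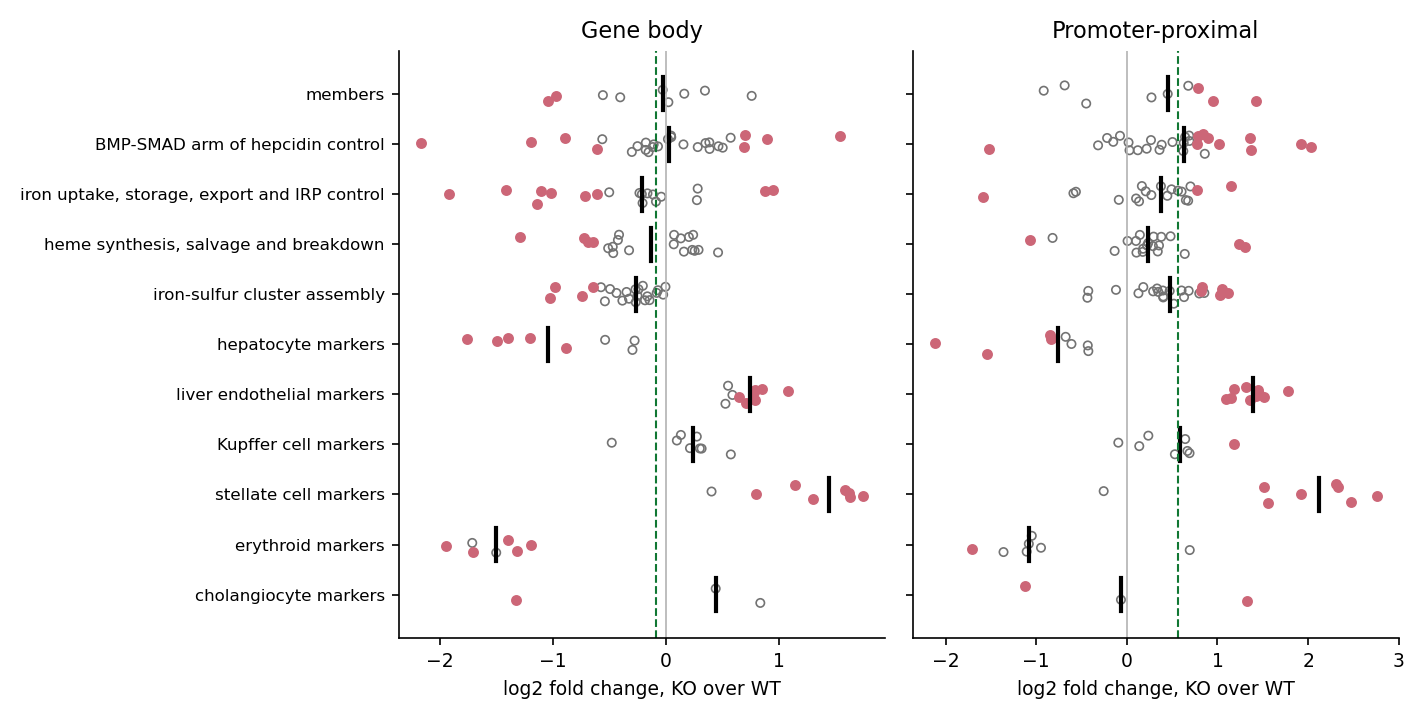
Log2 fold change of KO over WT of each active gene of the 9 described genes, 4 pathway lists and 6 cell type marker lists, in gene bodies and promoter-proximal windows. Filled points were called, bars mark list medians and dashed lines the medians of all active genes (-0.09 and 0.56), and hepatocyte markers lay at a gene body median of -1.05 and endothelial markers at 0.74.

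All 20 genes of heme synthesis, salvage and breakdown were active, and 4 were called down and none up in gene bodies, with a median log2 fold change of -0.13, beside 10.4% of all active genes called up and 11.4% called down. Cpox, coproporphyrinogen oxidase, fell by 0.73 on the log2 scale (adjusted p = 5.4e-05, limma), from 1321 and 1107 normalized gene body reads in WT to 715 and 742 in KO. Flvcr2, listed under its older symbol Mfsd7c, had 2176 and 1756 in WT and 812 and 779 in KO, a fall of 1.30 (adjusted p = 1.52e-08, limma). All 23 genes of iron-sulfur cluster assembly were active, and 4 were called down and none up in gene bodies, with a median of -0.27, against the same background. Fdx1, a mitochondrial ferredoxin, fell by 1.02 (adjusted p = 1.29e-06, limma) and Lyrm4, a partner of the cysteine desulfurase Nfs1, fell by 0.99 (adjusted p = 3.83e-07, limma). The promoter-proximal reads of Lyrm4 did not fall, at 24.1 and 20 in WT and 32.9 and 34.9 in KO. Its pausing index was called up, by 1.59 (adjusted p = 0.00579, limma). The other iron-sulfur genes called down were Abcb8 and Bola3. In promoter-proximal windows the heme breakdown genes Hmox1 and Blvrb were called up, by 1.31 and 1.23 on the log2 scale, and the haptoglobin gene Hp was called down at -1.07. There 5 of the 23 iron-sulfur genes were called up (Nfs1, Isca1, Iba57, Ciao1 and Fam96a), a smaller share than the 25.8% of all active genes. Those of these genes outside the naming rule were named after the values were seen. Without KO2 or WT2 all calls up of both lists in this window were lost, and fewer of all active genes were called up too. The call of Hp in this window was lost without WT1 or WT2. Of 3 active cholangiocyte markers, 1 (Sox9) was called down in gene bodies and none up.

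Of the 2282 enhancers listed from the pooled reads, which carry no values of single libraries, 4 of the 10 genes were the closest gene to at least 1, beside 10.9% of active genes. The enhancer closest to Hfe, at chr13:23717071-23718373 of mm10, lay 6260 bp from it. Slc40a1 had 2, at 52469 and 55293 bp, Smad7 had 1 at 23367 bp and Fth1 had 1 at 21803 bp, at chr19:9953686-9960900. Hamp and Tfr2 were linked to none, also by chromatin contacts of the 4DGenome collection, which linked 8 enhancers to Bmp6, 8 to Fth1 and 7 to Smad7. Of these, all 8 of Bmp6, 4 of Fth1 and 2 of Smad7 lay on the chromosome of the gene.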

How the data were processed

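PRO-seq was measured in 2 WT and 2 Hdac3 KO libraries, grouped by their labels. Reads were trimmed with cutadapt, aligned to mm10 with Bowtie2 and counted per RefSeq transcript with the NRSA tool by the authors. The deposited values of WT2 are plain read counts, and those of WT1, KO1 and KO2 are signal, counts that the authors multiplied by a factor per library (1.15, 1.06 and 1.52). Dividing by these factors gave whole reads for 100% of values, within a tolerance of 0.001. The deposited densities are signal per bp. All columns of samples were used. The list of enhancers, which the authors called on reads pooled over the libraries, gave positions and distances as deposited.

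Where a symbol had several transcripts, the one with most promoter-proximal reads on average was used, and each of the 10 genes had 1 transcript. Log2 values of normalized reads plus 1 were compared with limma 3.58.1 (trend, no block) in R 4.3.3 over 12705 active genes, with Benjamini-Hochberg adjustment, so fold changes of low genes are understated. Alternatives used edgeR 4.0.16 and DESeq2 1.42.0 on whole reads, pseudocounts of 0.1 and 10, other filters and scalings, a block for the replicate number, and fits without 1 of the libraries. A left-out library leaves 1 in its genotype, which is assumed to vary like the others. The fit was also run on simulated data without a shift common to all genes. Promoter-proximal windows held such a shift, so that run does not test the calls made there.

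Besides the 10 genes, the text names Hdac3 and 8 iron genes whatever their values, the 2 largest called rises and falls of each pathway list in gene bodies where the genotypes did not overlap, and the 3 genes nearest to Hamp in profile. The genes and lists were chosen with earlier results of these data known. Gene and promoter positions are 1-based on GRCm38.p6. Values of some single genes of the lists are not reported here.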

Additional observations from a re-analysis of the deposited data

How the results depend on the processing

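Tfr2 and Tmprss6 were called down in gene bodies under all alternatives run, edgeR and DESeq2 included, with log2 fold changes of -1.03 to -0.89 and -1.14 to -0.94. The count of 2 became 4 with no threshold on the fold change, which adds Smad7 and Fth1, and was 2 to 3 with 1 library left out. The promoter-proximal count of 3 was 0 with no filter on activity, where none of the 20642 genes tested was called. It was also lower with any 1 library left out. With scaling within each region 1 gene was called up (Id1) and 3 were called down (Tfr2, Trf and Tmprss6), 4 in all, so the rises went from 3 to 1. The pausing index count of 1 was 2 with a pseudocount of 10, and 0 with no filter, with median-of-ratios and with TMM scaling within each region, and 0 to 2 with 1 library left out. The causes were not tested. Over all active genes edgeR on whole reads called 1329 up and 1454 down in gene bodies, and 3251 up and 265 down in promoter-proximal windows, and limma called 1324, 1449, 3282 and 280. Scaled by median of ratios inside each region, limma called 1530, 1190, 634 and 942.

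The labels number the libraries alike in both genotypes and give no shared origin. How far WT1 and KO1 lay from the mean of their own genotype was correlated over active genes. The correlation was 0.0189 in gene bodies and -0.105 in promoter-proximal windows. These values cannot show whether libraries of like number had an origin in common, because each rests on a single difference between libraries per genotype. With a replicate block the counts were 2, 2 and 0 in gene bodies, promoter-proximal windows and pausing index. In a crossed pairing, chosen after seeing the data, they were 2, 4 and 2. Of 27 active genes followed across settings, 11 lost their gene body call with no filter on activity, none of them among the 10. Those called outside the 10 in the main setting were Tfrc, Ftl1, Slc39a14, Cp, Bmp5, Id3, Smad9, Il6ra, Steap4, Ltf, Flvcr2, Cpox, Fdx1 and Lyrm4. Over all genes the fit with no filter called 406 up and 589 down in gene bodies, against 1324 and 1449 in the main setting. Over the 27 single results of the 9 active genes and 411 alternative values, 376 kept their side of the threshold, 23 lost and 12 gained a call. Of the 376, 347 kept their sign and 29 changed it, in 10 results that were not called, and none reversed a called direction. Filters, blocks and the choice of transcript cannot alter the fold changes of these genes. Their signs under those settings were fixed in advance. None of the 411 lacked an adjusted p, and the 2 values for which DESeq2 gave none belong to named genes outside the 10. Depth limits most the gene bodies of Hamp (1 to 14 whole reads) and Id1 (6 to 16) and the promoter-proximal window of Bmp6 (2 to 5).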
